A study of Bubalus bubalis with 6 samples.

Results

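NRF2, encoded by NFE2L2, is the transcription factor that switches on antioxidant and detoxifying genes, and 9 genes of its pathway were followed in buffalo (Bubalus bubalis) intramuscular adipocytes. The members were the factor itself, its inhibitor KEAP1 and the targets NQO1, GCLC, GCLM, TXNRD1, SRXN1, OSGIN1 and HMOX1. They were found by gene name, in any letter case, in a table of 19476 gene models. Of the 9 names 6 matched 1 model each (NFE2L2, KEAP1, NQO1, GCLC, GCLM and TXNRD1). All 6 models passed the filter on low values, so no member was lost to it. SRXN1, OSGIN1 and HMOX1 matched no model and were not analysed here.

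The study measured polyadenylated RNA on a DNBSEQ platform in 3 samples transduced with an adenovirus for lncFABP4 (Ad_lncFABP4, genotype label lncFABP4 overexpress) and 3 samples transduced with an adenovirus for EGFP (Ad_EGFP, genotype label WT). lncFABP4 is a long non-coding RNA, and EGFP is a green fluorescent protein that serves as the control cargo. Both groups thus carried a virus, and both were kept for 48 hours after transduction and then for 48 hours in inducing medium, with collection on day 4. The comparison asks how overexpressed lncFABP4 alters transcript levels while the cells are induced to become fat cells. Per the labels the cells were plated in triplicate wells, with no word on animals or independent cultures. The p-values therefore reflect the spread among 6 wells, which may be technical. No source used here gives the viral dose or the make-up of the inducing medium.

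In unstressed cells the adaptor KEAP1 holds NRF2 and presents it to a CUL3 ubiquitin ligase, so that NRF2 is broken down as fast as it is made. Oxidants and electrophiles modify KEAP1, NRF2 then escapes breakdown, enters the nucleus, pairs with a small MAF protein and binds antioxidant response elements of its targets. Because this control acts mainly on the protein, the abundance of NFE2L2 mRNA alone does not report NRF2 activity.

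Values were read as FPKM, a unit corrected for model length and library size, so levels of different genes can be set side by side. Column totals lay between 340165 and 360920 FPKM. Relative to EGFP replicate 1, the depth estimated from low values was 0.956, 0.940 and 0.923 in the lncFABP4 samples. It was 1.01 and 0.979 in EGFP replicates 2 and 3, so every lncFABP4 sample was estimated as shallower than every EGFP sample. Read numbers themselves are unknown. FABP4, the gene that gives lncFABP4 its name, stood at 6505, 10588 and 12003 FPKM in the lncFABP4 samples, against 154, 149 and 197 FPKM in the EGFP samples. The table gives no model the name lncFABP4. Whether reads of the viral lncFABP4 were counted under FABP4 was not tested. The other 5 matched adipocyte markers did not move as one. CEBPA was never above 0.190 FPKM and ADIPOQ never above 0.0559 FPKM, which goes against the label adipocyte. PPARG, the main regulator of fat cell formation, stood at 23.6 to 27.1 FPKM in lncFABP4 samples and at 11.8 to 12.8 FPKM in EGFP samples, and was called higher. LPL, the lipoprotein lipase gene, was called lower, at 0.910, 1.18 and 0.903 FPKM in lncFABP4 samples and 2.34, 2.40 and 3.60 FPKM in EGFP samples (log2 -0.90, limma adjusted p = 0.00349), though it met the filter on low values only through the EGFP samples. CIDEC, a lipid droplet gene, stood at 2.27 to 2.68 FPKM in lncFABP4 samples and 1.95 to 2.22 FPKM in EGFP samples and was not called.

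Among the 6 members, NQO1 fell and TXNRD1 rose in lncFABP4 cells, while NFE2L2, KEAP1, GCLC and GCLM did not pass the test. Of 21 alternative settings, 11 lost the call of TXNRD1 and 1 that of NQO1. The test was limma with a mean-variance trend on log2(FPKM + 1), two-sided, with Benjamini-Hochberg adjustment over the 11064 models that reached 1 FPKM in at least 3 samples and a threshold of 0.05. Across all these models 26.7% were called (16.5% higher and 10.2% lower in lncFABP4 samples), so 2 of 6 members is a share near that background. The median difference of the 6 members was 0.02 (log2), beside 0.05 over all models tested. The lncFABP4 and EGFP samples did not overlap in 3 of the 6 members (NQO1, GCLM and TXNRD1), against 43.9% of all models tested.

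**Figure D1:**
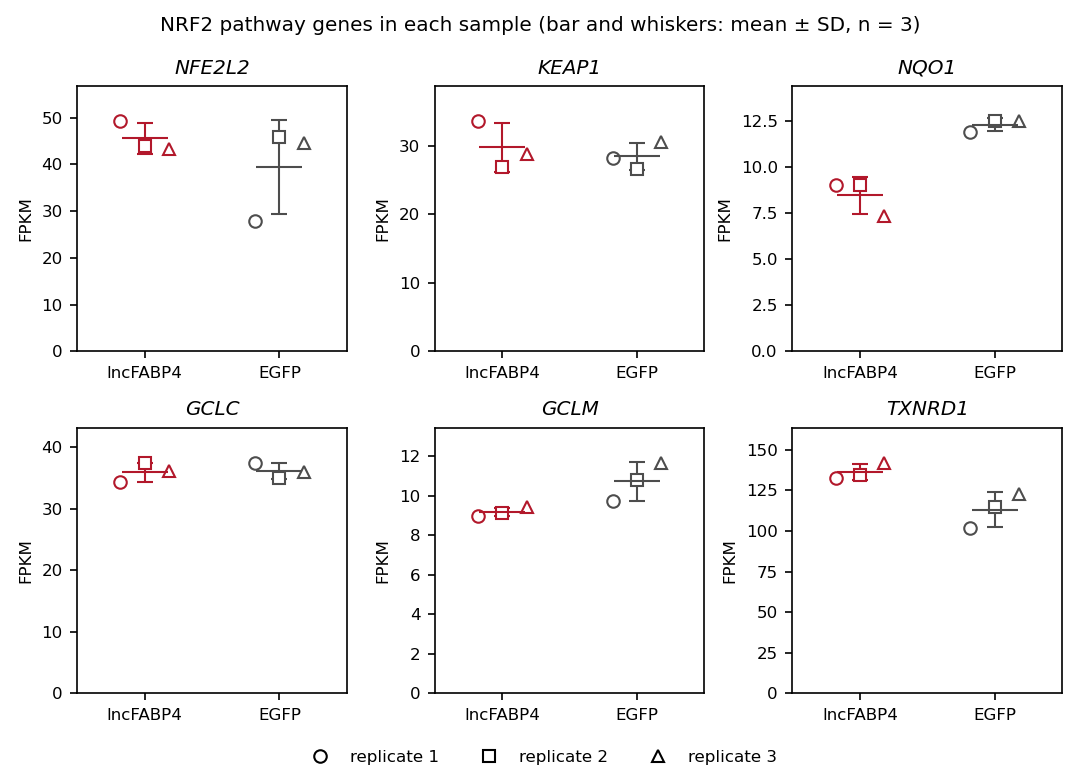
FPKM (vertical axes, from 0) of the 6 members in each of 3 lncFABP4 samples (left) and 3 EGFP samples (right); symbols mark replicate numbers, and bars with whiskers the mean ± SD. NQO1 was lower and TXNRD1 higher in every lncFABP4 sample than in any EGFP sample, and EGFP replicate 1 stood low for NFE2L2 at 27.9 FPKM.

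NFE2L2 (model evm.model.chr2.783), the transcription factor of the pathway, held 49.4, 43.9 and 43.4 FPKM in the lncFABP4 samples and 27.9, 45.9 and 44.6 FPKM in the EGFP samples. The groups overlapped, and 5 of the 6 samples lay between 43.4 and 49.4 FPKM, with EGFP replicate 1 well under them. The mean was 45.6 ± 3.32 FPKM in lncFABP4 samples and 39.5 ± 10.0 FPKM in EGFP samples (SD, n = 3 each), a log2 difference of 0.23 (SE 0.17, 95% interval -0.17 to 0.64, limma adjusted p = 0.348). The mean of EGFP replicates 2 and 3 was 1.62-fold that of EGFP replicate 1. Only 1.03% of the models tested stood at least 1.5-fold under both other EGFP samples in EGFP replicate 1, against 0.768% to 2.01% for the corresponding share in the other 5 samples. Without EGFP replicate 1 the difference was 0.0078 (log2, limma adjusted p = 0.961). NFE2L2 ranked at the 87.2 percentile of level among the models tested, so its mRNA was abundant in both groups.

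KEAP1 (evm.model.chr9.316), the inhibitor that hands NRF2 to the ubiquitin ligase, held 33.7, 26.9 and 28.7 FPKM in lncFABP4 samples and 28.2, 26.7 and 30.6 FPKM in EGFP samples. The groups overlapped, with lncFABP4 replicate 1 above every EGFP sample. Its log2 difference was 0.056 (SE 0.10, 95% interval -0.17 to 0.28, limma adjusted p = 0.701). The sign of this difference was not stable: it was negative with quantile scaling (-0.022) and with median-of-ratios scaling (-0.00029).

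The transcripts of factor and inhibitor can be compared within each sample, though this does not measure the balance of the proteins. The ratio of NFE2L2 to KEAP1 was 1.47, 1.64 and 1.51 in lncFABP4 samples and 0.988, 1.72 and 1.46 in EGFP samples. NFE2L2 thus exceeded KEAP1 in 5 of 6 samples, and in EGFP replicate 1 the levels were about equal. The ratios of both groups overlapped.

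NQO1 (evm.model.chr21.360) encodes a quinone reductase of the cytosol that uses NADH or NADPH, and its transcript is widely used as a readout of NRF2. It held 9.04, 9.01 and 7.32 FPKM in lncFABP4 samples, against 11.9, 12.5 and 12.5 FPKM in EGFP samples. Every lncFABP4 sample was below every EGFP sample, and lncFABP4 replicate 3 was lowest. The mean was 8.46 ± 0.985 FPKM in lncFABP4 samples and 12.3 ± 0.355 FPKM in EGFP samples (SD, n = 3 each), which is 0.687-fold, with a log2 difference of -0.50 (SE 0.10, 95% interval -0.72 to -0.28, limma adjusted p = 0.00782). This was the widest difference among the members. With any single library left out the call was kept, at adjusted p from 0.00835 to 0.0321. Without replicate number 3 of both groups it was not called (-0.40, limma adjusted p = 0.108).

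TXNRD1 (evm.model.chr4.800) encodes the cytosolic thioredoxin reductase, a selenoprotein that keeps thioredoxin in its reduced form with electrons from NADPH. It was the most abundant member, at the 96.3 percentile of all models tested. It held 133, 135 and 142 FPKM in lncFABP4 samples and 102, 115 and 123 FPKM in EGFP samples. Every lncFABP4 sample was above every EGFP sample. The mean was 136 ± 5.02 FPKM in lncFABP4 samples and 113 ± 10.7 FPKM in EGFP samples (SD, n = 3 each), which is 1.21-fold, with a log2 difference of 0.27 (SE 0.08, 95% interval 0.08 to 0.46, limma adjusted p = 0.0429). This call lay close to the threshold. It was lost with no filter on low FPKM and with TMM, quantile or median-of-ratios scaling (limma adjusted p from 0.0768 to 0.143), and without EGFP replicate 1 (0.133), EGFP replicate 2 (0.0700), lncFABP4 replicate 2 (0.0986) or lncFABP4 replicate 3 (0.149), with the difference always positive. Leaving out replicate number 1, 2 or 3 of both groups also ended the call (limma adjusted p from 0.0894 to 0.163).

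**Figure D2:**
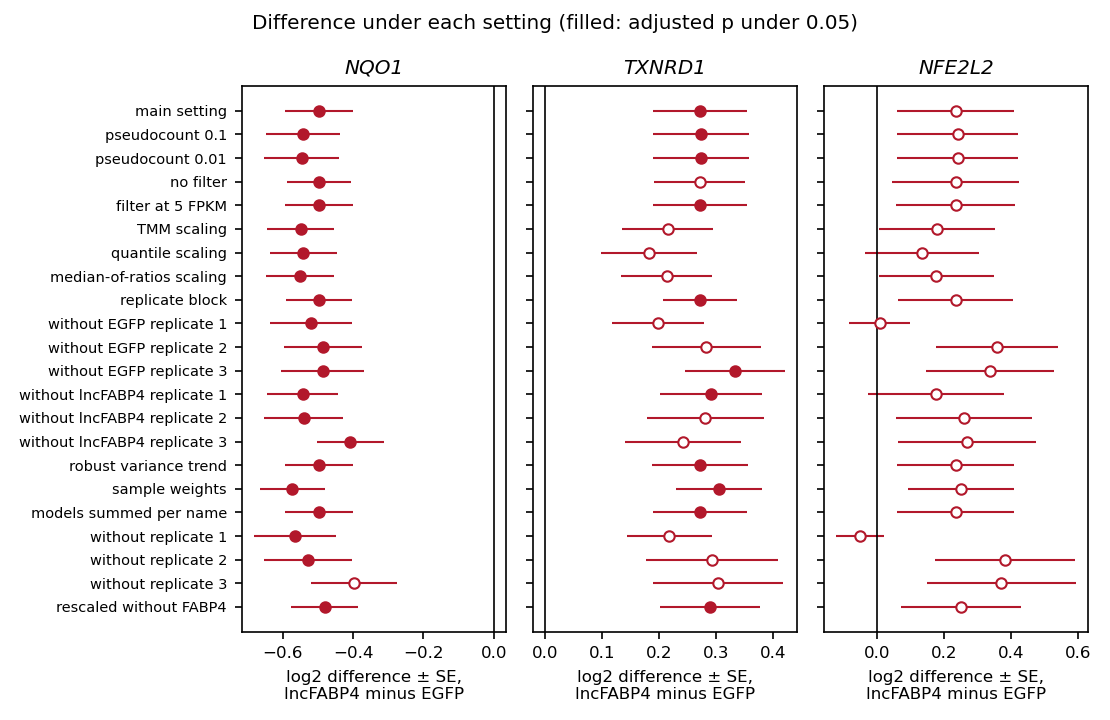
Log2 difference ± SE (lncFABP4 minus EGFP, horizontal axes, each panel with its own range) of NQO1, TXNRD1 and NFE2L2 under the main setting and 21 alternatives; filled points have an adjusted p under 0.05. NQO1 stayed negative between -0.57 and -0.40, TXNRD1 positive between 0.18 and 0.33, and NFE2L2 was near 0 where EGFP replicate 1 was left out.

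GCLC and GCLM encode the catalytic and the modifier subunit of glutamate-cysteine ligase, the rate-limiting enzyme of glutathione synthesis. GCLC (evm.model.chr2.659) held 34.3, 37.3 and 36.1 FPKM in lncFABP4 samples and 37.4, 35.0 and 35.9 FPKM in EGFP samples. The groups overlapped, with a coefficient of variation of 4.29% in lncFABP4 samples and 3.43% in EGFP samples. Its log2 difference was -0.0085 (SE 0.07, limma adjusted p = 0.938), with a 95% interval of -0.17 to 0.15.

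GCLM (evm.model.chr6.583) held 8.998, 9.12 and 9.42 FPKM in lncFABP4 samples, against 9.72, 10.8 and 11.7 FPKM in EGFP samples. The groups did not overlap, though lncFABP4 replicate 3 and EGFP replicate 1 lay close together. The mean was 9.18 ± 0.216 FPKM in lncFABP4 samples and 10.7 ± 0.982 FPKM in EGFP samples (SD, n = 3 each). The log2 difference of -0.20 (SE 0.09, 95% interval -0.40 to -0.0010) did not pass the threshold (limma adjusted p = 0.123), nor did it under any alternative run (0.0578 to 0.480).

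The transcript of the catalytic subunit was thus the more abundant of the pair in every sample. The ratio of GCLC to GCLM was 3.81, 4.09 and 3.83 in lncFABP4 samples and 3.85, 3.24 and 3.07 in EGFP samples. The ratios overlapped through EGFP replicate 1. By contrast, TXNRD1 and NQO1 moved apart: the ratio of TXNRD1 to NQO1 was 14.7, 14.9 and 19.4 in lncFABP4 samples and 8.57, 9.16 and 9.84 in EGFP samples. This pair was chosen after its values were seen and is given as a description.

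**Figure D3:**
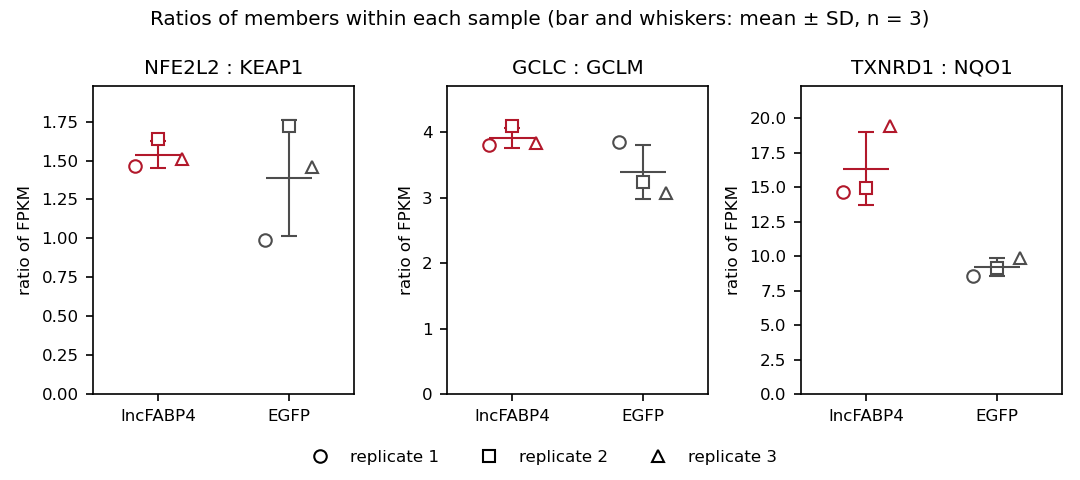
Ratios of FPKM (vertical axes, from 0) of 3 pairs of members within each sample, lncFABP4 left and EGFP right; symbols mark replicate numbers, and bars with whiskers the mean ± SD. The groups overlap for NFE2L2 to KEAP1 and GCLC to GCLM and are apart for TXNRD1 to NQO1, at 14.7 to 19.4 in lncFABP4 samples and 8.57 to 9.84 in EGFP samples.

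Over all 6 samples the levels ran, from high to low, TXNRD1 (mean 125 FPKM), NFE2L2 (42.5), GCLC (36.0), KEAP1 (29.1), NQO1 (10.4) and GCLM (9.96). NFE2L2 and GCLC overlapped in their ranges over the samples, and so did NQO1 and GCLM. TXNRD1 was above NFE2L2 in every sample, GCLC above KEAP1, and KEAP1 above NQO1.

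A profile like that of NQO1, the member with the widest difference, was sought among 7105 named models of at least 5 FPKM on average. Likeness was the mean absolute distance of log2(FPKM + 1) over the 6 samples after each gene was centred on its own mean. RNF214 (5.90, 5.61 and 4.70 FPKM in lncFABP4 samples, 7.37, 8.15 and 7.55 FPKM in EGFP samples) was nearest, at a distance of 0.038. GLUL, the glutamine synthetase gene, followed at 0.045, with 106, 95.04 and 88.7 FPKM in lncFABP4 samples and 133, 142 and 137 FPKM in EGFP samples. ACADSB, a mitochondrial acyl-CoA dehydrogenase gene, came next at 0.049, with means of 22.1 FPKM in lncFABP4 samples and 30.8 FPKM in EGFP samples. This search is a description only. NQO1 was picked for its wide difference, so the nearest genes share that difference by construction, and a link between them was not tested.

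Other genes of the pathway were read from a list of 43 names, of which 35 were matched by 89 models and 32 were tested through 41 models. Of these 41 models 6 rose, 10 fell and 25 were not called, which is 39.0% called, beside the background of 26.7%. The median difference was -0.02 (log2), beside 0.05 over all models tested. The 16 called models belong to 12 genes, 6 with a model called higher and 6 with a model called lower. With the models of each name summed, 5 names of the list were called higher and 6 lower. In that run 1782 of all 10488 sums tested were called higher and 1116 lower. In the main setting the models of the list that were not called differed by -0.39 to 0.33 (log2). Of the 16 called models 3 (1 of ABCC1 and 2 of ABCC4) met the filter on low values only through the group in which they were high. Meeting the filter in this way favours models that differ between the groups, and without these 3 there were 5 higher and 8 lower. A further model, PRDX1, reached 1 FPKM in 3 lncFABP4 samples and 2 EGFP samples and was not called. Over all 11064 models tested, 280 met the filter through lncFABP4 samples alone and 309 through EGFP samples alone. Outside these, 1716 models were called higher and 996 lower. Levels of these genes are given as mean ± SD of 3 samples. The roles that follow hold at most 11 tested models each, so their shares called are descriptions only.

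NRF2 partners and regulators had 1 of 8 models higher and 0 lower (12.5% called, beside 26.7% of all models tested). GSK3B, a kinase that marks NRF2 for another route of breakdown, rose to 16.1 ± 0.942 FPKM in lncFABP4 samples, against 12.7 ± 1.198 FPKM in EGFP samples (log2 0.32, limma adjusted p = 0.0325). That call was lost without a filter and with each of 3 other scalings (limma adjusted p from 0.0537 to 0.0710), and without EGFP replicate 1 or 3 or lncFABP4 replicate 2 or 3 (0.0801 to 0.114). The ligase subunits CUL3 and RBX1 differed by 0.10 and 0.10 (log2), the small MAF genes MAFF and MAFK by 0.09 and 0.18, and BACH1, a repressor at the same DNA elements, by 0.33. None of these 5 passed the test.

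Glutathione genes had 2 of 6 models higher and 2 lower (66.7% called, beside 26.7% of all models tested). GSS, the second enzyme of glutathione synthesis, rose to 12.2 ± 1.31 FPKM in lncFABP4 samples, against 6.39 ± 0.406 FPKM in EGFP samples (1.90-fold, log2 0.83, limma adjusted p = 0.00115). SLC7A11, the cystine transporter that feeds the pathway, rose to 6.40 ± 0.193 FPKM in lncFABP4 samples, against 4.13 ± 0.825 FPKM in EGFP samples (log2 0.54, limma adjusted p = 0.0133), a call lost without EGFP replicate 3 (0.0510). The glutathione transferase genes GSTA4 (log2 -0.38) and GSTM1 (-0.56) fell, at 9.18 ± 0.527 and 5.43 ± 1.03 FPKM in lncFABP4 samples and 12.3 ± 0.825 and 8.46 ± 1.58 FPKM in EGFP samples. The call of GSTM1 was lost without a filter and without EGFP replicate 1 or 3 or lncFABP4 replicate 2 or 3 (limma adjusted p from 0.0726 to 0.0953). The tested models of GSR, the glutathione reductase gene, and GSTP1 differed by 0.02 and -0.02 (log2) and were not called. The names GSR, GSTP1 and GSTA4 are carried by 2 models each and GSTM1 by 3, with 1 tested per name, and such models can share reads. The untested GSTP1 model averaged 0.672 FPKM in lncFABP4 samples and 1.91 FPKM in EGFP samples, and its groups did not overlap. The other untested models of these names stayed under 1 FPKM in every sample. Of the thioredoxin partners, PRDX1 was tested alone and was not called (log2 0.13).

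Genes listed under NADPH supply had 2 of 4 models higher and 1 lower (75% called, beside 26.7% of all models tested). NADPH is an electron source of both TXNRD1 and NQO1. The list also holds TALDO1 and TKT, which do not make NADPH themselves. TALDO1, a transaldolase of the pentose phosphate pathway, rose to 144 ± 1.01 FPKM in lncFABP4 samples, against 102 ± 9.18 FPKM in EGFP samples (1.40-fold, log2 0.49, limma adjusted p = 0.00384). IDH1, the cytosolic isocitrate dehydrogenase gene, rose to 116 ± 8.64 FPKM in lncFABP4 samples, against 83.0 ± 5.49 FPKM in EGFP samples (log2 0.47). TKT, the transketolase gene, fell to 140 ± 15.0 FPKM in lncFABP4 samples, against 184 ± 12.7 FPKM in EGFP samples (log2 -0.39, limma adjusted p = 0.0169). The call of TKT was lost without EGFP replicate 3, lncFABP4 replicate 2 or lncFABP4 replicate 3 (limma adjusted p from 0.0607 to 0.0704). The non-oxidative enzymes TALDO1 and TKT thus moved in opposite directions.

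Of 11 models of detoxification and export genes 1 rose and 4 fell (45.5% called, beside 26.7% of all models tested). PTGR1, a reductase of prostaglandins and lipid aldehydes, fell to 7.28 ± 0.491 FPKM in lncFABP4 samples, against 11.9 ± 0.873 FPKM in EGFP samples (0.610-fold, log2 -0.64, limma adjusted p = 0.00215). The exporter ABCC1 had 2 tested models. The less abundant one (evm.model.chr1.347) rose to 3.38 ± 0.642 FPKM in lncFABP4 samples, against 0.737 ± 0.263 FPKM in EGFP samples (log2 1.33), while the more abundant one stood at 11.7 ± 0.504 FPKM in lncFABP4 samples and 11.9 ± 0.902 FPKM in EGFP samples and was not called. The less abundant model reached 1 FPKM in 3 lncFABP4 samples and 1 EGFP sample. The other 3 models that fell are named ABCC4, an exporter with 35 models in the table, and stood at 0.769 to 1.57 FPKM in lncFABP4 samples and 1.34 to 2.55 FPKM in EGFP samples. Of these 3, the 2 least abundant reached 1 FPKM in 3 EGFP samples each and in 1 and 0 lncFABP4 samples. The most abundant ABCC4 model, at 7.02 FPKM in lncFABP4 samples and 8.95 FPKM in EGFP samples, was not called. Models with the same name can share reads, so these values are uncertain. Single libraries left out ended the call for the ABCC4 models at 0.769 FPKM (5 of 6 libraries, all but lncFABP4 replicate 3) and 1.57 FPKM (EGFP replicate 2 or 3 or lncFABP4 replicate 2) in lncFABP4 samples, with limma adjusted p up to 0.122 and 0.0921.

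Of 11 models of haem and iron genes 0 rose and 3 fell, a share (27.3%) near that of all models tested (26.7%). These 3 all carry the name of FTL, the ferritin light chain gene. The most abundant FTL model fell to 3185 ± 397 FPKM in lncFABP4 samples, against 4946 ± 362 FPKM in EGFP samples (0.644-fold, log2 -0.64, limma adjusted p = 0.00346). The FTL name is carried by 10 models, which can share reads. For the FTL model at 202 FPKM in lncFABP4 samples and 302 FPKM in EGFP samples, the groups overlapped and leaving out EGFP replicate 1 or 3 or lncFABP4 replicate 2 or 3 ended the call (limma adjusted p from 0.0974 to 0.112). The most abundant model of FTH1, the heavy chain gene, stood at 2188 ± 169 FPKM in lncFABP4 samples and 2446 ± 124 FPKM in EGFP samples and was not called (log2 -0.16). BLVRA and BLVRB, which reduce biliverdin made from haem, differed by 0.08 and -0.02 (log2) and were not called.

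**Figure D4:**
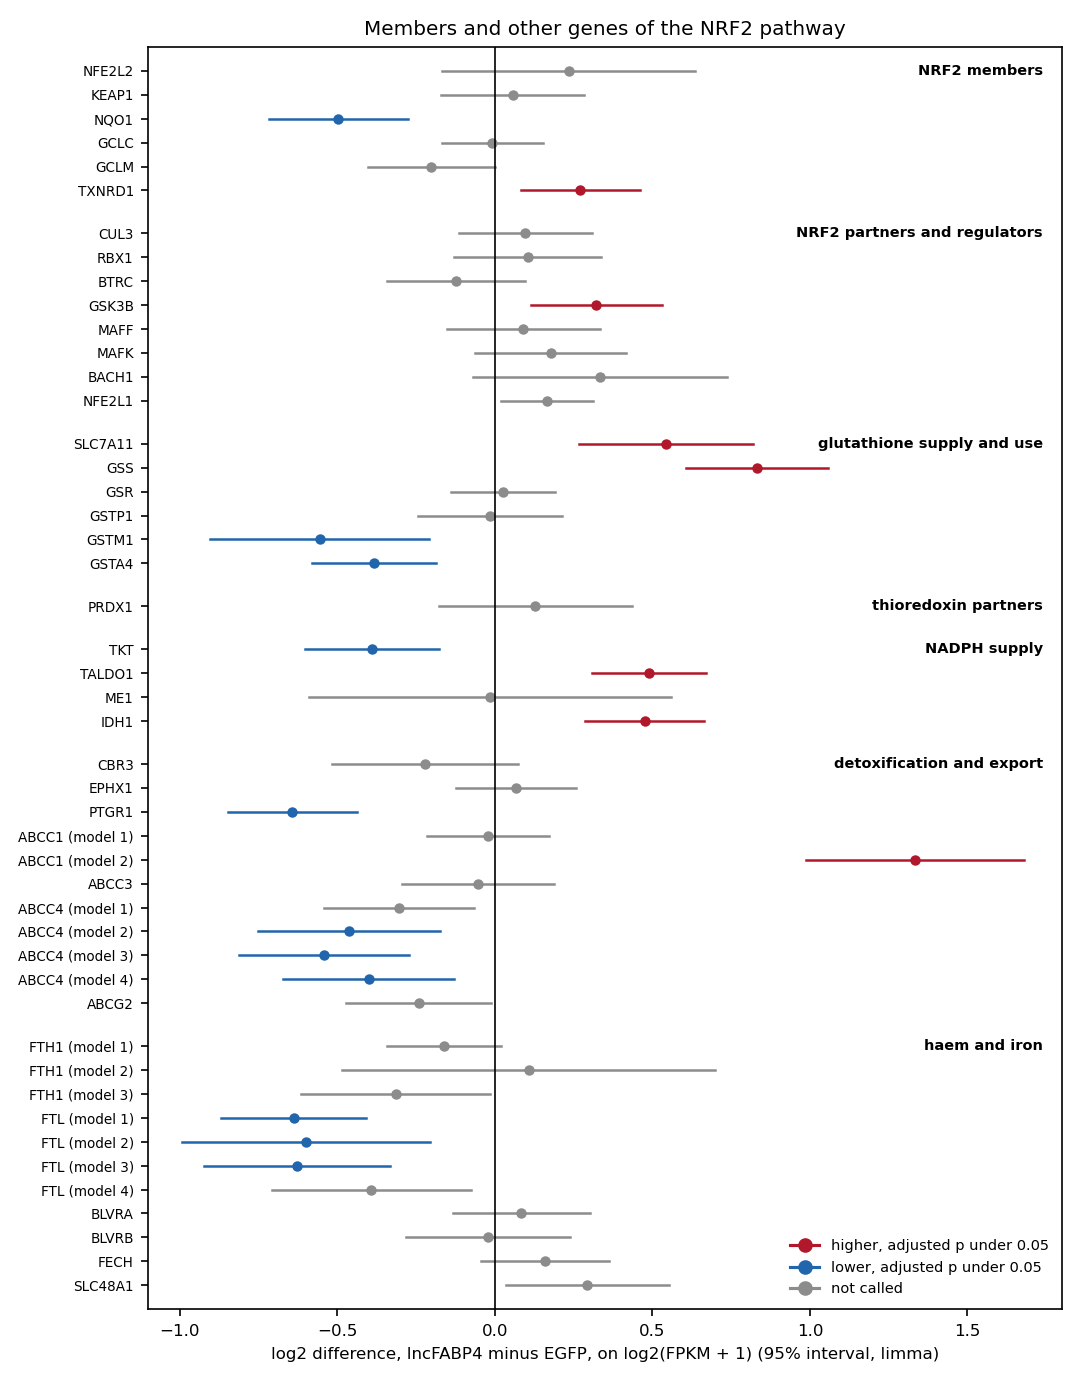
Log2 difference (lncFABP4 minus EGFP, horizontal axis) with its 95% interval for the 6 members (top) and the 41 tested models of the wider list, by role; models of 1 name are numbered from high to low level. Red marks the models called higher (TXNRD1 and 6 others), blue those called lower (NQO1 and 10 others), and grey those not called.

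Markers of other cells also differed between the groups. The summed level of mesenchymal progenitor and fibroblast markers (4 of 5 genes matched) was 5131 to 5632 FPKM in lncFABP4 samples and 7985 to 8574 FPKM in EGFP samples. Most of this sum was COL1A1 (means of 2881 FPKM in lncFABP4 samples and 3629 FPKM in EGFP samples) and DCN (2230 and 4235 FPKM). THY1 (157 and 249 FPKM) and PDGFRA (35.5 and 72.6 FPKM) added little. Each of these genes was called lower. Pericyte and smooth muscle markers (3 of 4) summed to 138 to 201 FPKM in lncFABP4 samples and 71.9 to 123 FPKM in EGFP samples. Nearly all of that was ACTA2, at a mean of 168 FPKM in lncFABP4 samples and 94.2 FPKM in EGFP samples. MYH11 and the more abundant of 2 CSPG4 models were not called (log2 -0.02 and -0.14), and the less abundant CSPG4 model was called higher (log2 0.47) but met the filter only through lncFABP4 samples. The macrophage and leucocyte list (4 of 5) summed to 36.0 to 37.0 FPKM in lncFABP4 samples and 17.1 to 23.8 FPKM in EGFP samples. Its difference lay in CD14, at a mean of 27.5 FPKM in lncFABP4 samples and 10.6 FPKM in EGFP samples, while CD68 was at 8.88 FPKM in lncFABP4 samples and 9.46 FPKM in EGFP samples and was not called. The leucocyte gene PTPRC was at most 0.0113 FPKM and CSF1R at most 0.258 FPKM. Endothelial markers (4 of 4) summed to 4.08 to 4.33 FPKM in lncFABP4 samples and 2.90 to 3.29 FPKM in EGFP samples, with CDH5, PECAM1 and KDR at most 0.0679 FPKM. The rest was VWF, at a mean of 4.12 FPKM in lncFABP4 samples and 3.05 FPKM in EGFP samples, called higher (log2 0.34, limma adjusted p = 0.0218). Skeletal muscle lineage markers (3 of 6) summed to 2.09 to 2.70 FPKM in lncFABP4 samples and 4.16 to 4.92 FPKM in EGFP samples. These low sums were mostly DES, at a mean of 1.60 FPKM in lncFABP4 samples and 3.03 FPKM in EGFP samples, called lower. MYH3 (0.683 and 1.31 FPKM) was also called lower but met the filter only through EGFP samples, and MYF5 was at most 0.199 FPKM. Adipocyte markers (6 of 8) summed to 6532 to 12032 FPKM in lncFABP4 samples and 166 to 215 FPKM in EGFP samples, nearly all of it FABP4. Reads of FABP4 and of the viral lncFABP4 were not told apart. In bulk samples, fewer cells of a type and less RNA per cell cannot be told apart, and the part of these shifts in the differences of NQO1 and TXNRD1 was not tested.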

How the data were processed

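RNA of 6 samples was deposited by the authors as 1 table of values per gene model and sample. Its header names no unit. The deposited values were read as FPKM, since they have decimals and do not add up to the same total in each sample. The submitters' processing notes name HISAT2 and StringTie and give no version. No source used here names the genome build or the annotation, and no coordinates are printed. The authors took gene names from a protein match, and 4570 models have none and were not matched. Columns were assigned by the sample titles.

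The 11064 models that reached 1 FPKM in 3 samples or more were tested with limma 3.58.1 in R 4.3.3 on log2(FPKM + 1), which understates changes of low genes, and the same code was tested on simulated data. Relative depth came from the most frequent ratio between samples among models under 0.3 FPKM. The members and lists were chosen with earlier results of these data known. Every matched member and every called model of the wider list is named, except that 1 gene of the list is not reported here and is left out of its counts.

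Alternatives were pseudocounts of 0.1 and 0.01, a filter at 5 FPKM or none, scaling by TMM, by quantiles or by the median of ratios, a replicate block, each sample left out, a robust trend (statmod 1.5.0), sample weights and summing per name. Leaving out each replicate number in both groups and rescaling without FABP4 were added after the data were seen.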

Additional observations from a re-analysis of the deposited data

How the results depend on the processing

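Besides the main setting 21 alternatives were run. Of all models tested, 2958 were called, 4982 with sample weights, 1673 to 3468 with 1 sample left out, and 567 to 2439 with 1 replicate number left out of both groups. Scaling moved the split of calls: 61.8% were higher in the main setting, 49.5% with TMM (1422 higher, 1451 lower), 50.8% with quantile (1461 and 1413) and 49.2% with median-of-ratios scaling (1414 and 1458). Of the 6 members 2 were called in the main setting, 1 (NQO1) without a filter and with TMM, quantile or median-of-ratios scaling, 1 or 2 with 1 sample left out, and 0 or 1 with 1 replicate number left out. The wider list had 16 calls, 9 to 19 with 1 sample left out and 2 to 14 with 1 replicate number left out, with 2 higher (GSS and the less abundant ABCC1 model, which met the filter only through lncFABP4 samples in the main setting) and 0 lower without replicate number 3. Members that were not called changed sign as follows. KEAP1 was at -0.022 with quantile scaling, -0.00029 with median-of-ratios scaling, -0.021 with sample weights, -0.033 without lncFABP4 replicate 1, and between -0.039 and 0.13 with samples or numbers left out. GCLC was at 0.0091 when rescaled without FABP4, and between -0.058 and 0.049 with samples or numbers left out (above 0 without EGFP replicate 1, lncFABP4 replicate 1 or both). NFE2L2 was between -0.050 and 0.38 with samples or numbers left out, and below 0 only without replicate 1 of both groups. The causes were not tested.

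Samples of the same number did not deviate together in every pair (r across models 0.18, 0.29 and -0.077), so the numbers are not taken as a pairing. With a replicate block 3336 models were called (2061 higher, 1275 lower), 2 members (NQO1, adjusted p = 0.0121, and TXNRD1, adjusted p = 0.0250, both limma) and 17 models of the wider list. Because the number of reads is unknown, no counting error can be given.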

Other observations

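Close relatives of the members were looked up by name after the data had been seen. Of 8 names 7 matched 1 model each, and 4 of these models were tested, with 1 called, beside 26.7% of all models. HMOX2, the constitutive haem oxygenase and relative of the inducible HMOX1, held 90.9, 91.9 and 92.5 FPKM in lncFABP4 samples, against 54.9, 48.4 and 56.1 FPKM in EGFP samples. Every lncFABP4 sample was above every EGFP sample, with a 1.73-fold higher mean (log2 0.78, SE 0.08, limma adjusted p = 0.000564), and the call was kept under all 21 alternatives. TXNRD2, the mitochondrial thioredoxin reductase gene, averaged 12.6 ± 2.14 FPKM in lncFABP4 samples and 13.0 ± 1.23 FPKM in EGFP samples (SD, n = 3 each) and was not called. TXNRD3, the third reductase gene, averaged 3.70 ± 0.333 FPKM in lncFABP4 samples and 4.68 ± 0.370 FPKM in EGFP samples, and was not called (log2 -0.28, limma adjusted p = 0.0690). OSGIN2, a relative of OSGIN1, averaged 12.4 ± 0.441 FPKM in lncFABP4 samples and 12.2 ± 1.93 FPKM in EGFP samples. NFE2, NFE2L3 and BACH2, relatives of NFE2L2 and BACH1, stayed under 1 FPKM in every sample and were not tested.

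ME1, the malic enzyme gene of the NADPH list, held 50.8, 87.1 and 51.7 FPKM in lncFABP4 samples and 51.2, 53.3 and 86.7 FPKM in EGFP samples. One sample of each group, lncFABP4 replicate 2 and EGFP replicate 3, thus stood far above the other 4, which lay within 50.8 to 53.3 FPKM. The log2 difference between the groups was -0.016 (SE 0.25). ME1 was singled out after its values were seen.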
